A study of Mus musculus with 7 samples.

Results

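The 5C-Oct4GFP+ cells of this study carried 150 genes whose RNA stood highest above every other library, and these genes are described here one group after another. The members were chosen by the measurement itself: a gene needed a level of at least 10 TPM (the RSEM measure of transcript level, corrected for length and depth) in 5C-Oct4GFP+, its score was log2(TPM + 1) in that library minus the largest log2(TPM + 1) in the other 6 libraries, and the 150 highest scores were kept. They were 150 of the 8921 genes that reached this level (1.68%), called detected genes here, and of 29267 genes in all. A score of 1 is a 2-fold difference in TPM + 1. The height of these genes in 5C-Oct4GFP+ is what selected them and is not a finding.

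RNA was sequenced from 7 libraries, 1 per group, so differences between groups had no replicate check and no test was made. The sorted libraries, named 5C-Oct4GFP+ and 5C-Oct4GFP- or, by the other medium, mES-Oct4GFP+ and mES-Oct4GFP-, came from OG2 mouse embryonic fibroblasts, which carry an egfp gene driven by Oct4 regulatory sequence, after retroviral Oct4, Sox2, Klf4 and c-Myc. These cells were reprogrammed in serum-based mES medium with LIF and vitamin C or in serum-free 5C medium with N2, bFGF, LIF and vitamin C, were sorted by green fluorescence and are labelled passage 0. The libraries labelled 5C-Oct4GFP+ (naive) and 5C-Oct4GFP+ (primed), called naive and primed derivatives here, were 5C-Oct4GFP+ cells cultured on in naive or primed medium to passage 20. R1 ESCs-primed were cells of the R1 embryonic stem cell line in primed culture, also labelled passage 20. Medium, passage and sorting therefore differed together between several of the groups. In a bulk library a larger share of cells that express a gene and more RNA per cell cannot be told apart.

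Naive pluripotent cells correspond to the inner cell mass of the blastocyst, primed cells to the later epiblast, and the state between them is called formative. Cells that leave naive pluripotency raise the de novo DNA methylation machinery, in which Dnmt3l is a catalytically inactive partner that stimulates Dnmt3a and Dnmt3b. Several germline genes are active in pluripotent cells, where DNA methylation helps to keep many others silent.

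The expected counts summed to between 6108252 and 11496615 per library, with 10443952 in 5C-Oct4GFP+. All 10 pluripotency markers listed had a TPM of at least 10 in 5C-Oct4GFP+, as in mES-Oct4GFP+ and the naive derivatives. None of the 15 fibroblast markers did, and their summed level was 22.8 TPM in 5C-Oct4GFP+ against 414.4 TPM in 5C-Oct4GFP- and 1172 TPM for mES-Oct4GFP-. The 11 keratinocyte markers summed to 275 TPM in 5C-Oct4GFP+, with 3 of them at 10 TPM or more, against 88.4 TPM for mES-Oct4GFP+, 80.4 TPM for the naive derivatives, 549 TPM for 5C-Oct4GFP- and 1115 TPM for mES-Oct4GFP-. None of the keratinocyte, fibroblast, trophoblast or primitive endoderm markers was a member. Only 3, 0, 4 and 2 of them, in this order, had the 10 TPM that a member needed. With members at 1.68% of detected genes, this absence was largely fixed by the rule and no conclusion is drawn from it.

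Of the 8921 genes, 1188 were highest in 5C-Oct4GFP+ (a score above 0). Scores of at least 1 were reached by 92 (1.03%), all of them members, and scores of at least 2 by 14. The same rule gave 68 genes with a score of at least 1 in mES-Oct4GFP+ (0.764% of the genes detected there by the same limit), 585 in mES-Oct4GFP- (5.88%), 209 in 5C-Oct4GFP- (2.11%), 32 in the naive derivatives (0.381%), 22 in the primed derivatives (0.250%) and 27 in R1 ESCs-primed (0.302%). Among the 4 libraries that were Oct4GFP+ or derived from such cells, 5C-Oct4GFP+ had the most genes of this kind, and both Oct4GFP- libraries had more. This order depends on which libraries were sampled, because a library with a close counterpart among the others can have few such genes. Between the naive derivatives and mES-Oct4GFP+, 91 of the 8921 genes were at least 2-fold higher and 188 lower. Between the primed derivatives and R1 ESCs-primed these were 77 and 212. No conclusion is drawn from the order. The scores dropped steeply from Aire (5.19) and Dnmt3l (4.63) to Enox1 (2.84), reached 1.79 at rank 25 and 0.75 at rank 150, and had a median of 1.14.

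**Figure D1:**
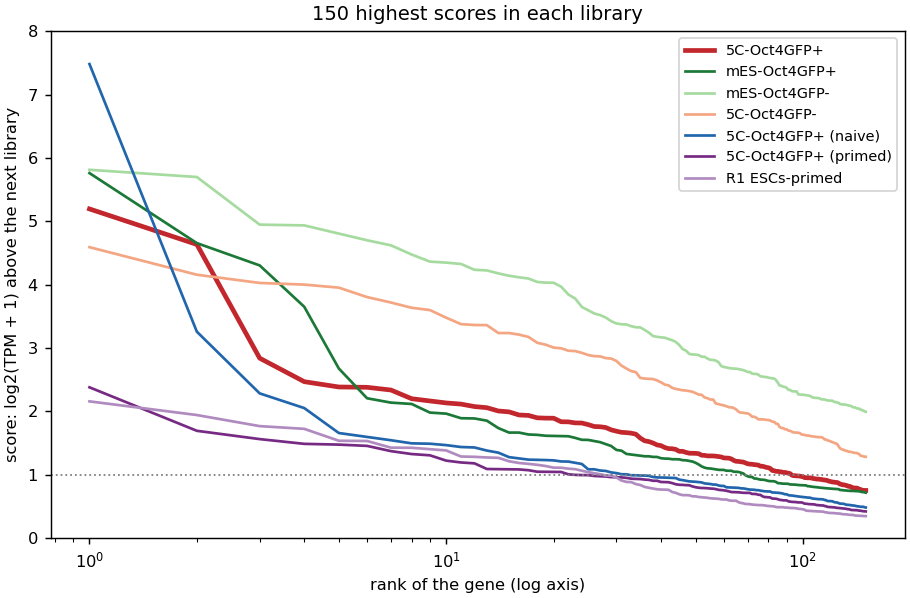
The 150 highest scores of each library against their rank (log axis), where the score on the y axis is log2(TPM + 1) above the next library and the dotted line marks a score of 1. The 5C-Oct4GFP+ curve begins with 2 genes above 4.6, continues from 2.84 and meets the line at rank 92. From rank 3 on it lies below both Oct4GFP- curves, and from rank 2 on above those of the 3 libraries at passage 20.

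The 3 members just inside the limit were Gpx2 (447.6 TPM against 265.7 in the next library), Etv5 (383 against 227.6 TPM) and Rhbdf2 (37.7 against 22 TPM). The 3 genes just outside were Cmah (677.9 against 403.6 TPM), Pdzd4 (156.5 against 93.2 TPM) and Wdr86 (16.6 against 9.52 TPM). All 6 had scores of 0.75 or 0.74, so that the lower edge of the group was continuous with the genes outside it. The members ranged from 10.07 to 7929 TPM in 5C-Oct4GFP+ with a median of 39.5 TPM, and 46 of them had at least 100 TPM. The lowest expected count of a member in 5C-Oct4GFP+ was 33.4 reads and the median was 522 reads. The lower bound of the 95% Clopper-Pearson interval of the TPM ratio to the next library, which covers counting error only, was above 1 for all 150 members and at least 2 for 64, on the same ratio that chose them.

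The 2 highest members are neighbours on chromosome 10 (GRCm38), and the next gene along the chromosome is a member as well. Aire (ENSMUSG00000000731), which in the thymus drives the display of tissue-restricted antigens, lies at chr10:78030022-78043610 on the reverse strand. Dnmt3l (ENSMUSG00000000730) lies at chr10:78041947-78063622 on the forward strand. Icosl (ENSMUSG00000000732), which encodes the ligand of the T cell co-stimulator ICOS, lies at chr10:78069302-78083913 on the forward strand. The annotated spans of Aire and Dnmt3l overlap by 1664 bases with their starts 1663 bases apart, and Icosl begins 5679 bases after the end of Dnmt3l.

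The RefSeq promoter windows of these 3 genes (250 bases before to 50 after a start, GRCm38.p6) are printed because the genes share a position and a library, each with its CG dinucleotides, the sites of DNA methylation, in capitals. The Aire window is chr10:78043561-78043860 (reverse strand) and lies wholly within the span of Dnmt3l, where it is intronic, with 50 of its bases in an Aire exon. The Dnmt3l window, the first of 3 listed for the gene, is chr10:78042037-78042336 (forward strand) and lies inside the span of Aire. It begins downstream of the annotated Dnmt3l start, with 141 of its bases in Dnmt3l exons and 75 in Aire exons. The Icosl window is chr10:78069118-78069417 (forward strand).
Aire: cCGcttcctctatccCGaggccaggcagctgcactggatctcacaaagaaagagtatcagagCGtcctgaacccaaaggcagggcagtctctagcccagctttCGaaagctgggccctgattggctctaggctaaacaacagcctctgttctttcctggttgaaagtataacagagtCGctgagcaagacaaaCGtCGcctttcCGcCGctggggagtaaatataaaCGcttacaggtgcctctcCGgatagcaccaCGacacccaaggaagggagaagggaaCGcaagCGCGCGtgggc
Dnmt3l: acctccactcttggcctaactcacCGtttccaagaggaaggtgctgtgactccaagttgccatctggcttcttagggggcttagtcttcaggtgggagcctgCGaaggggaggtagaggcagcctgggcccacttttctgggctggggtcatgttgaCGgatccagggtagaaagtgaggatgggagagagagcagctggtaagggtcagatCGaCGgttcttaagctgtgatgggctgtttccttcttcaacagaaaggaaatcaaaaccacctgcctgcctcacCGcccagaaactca
Icosl: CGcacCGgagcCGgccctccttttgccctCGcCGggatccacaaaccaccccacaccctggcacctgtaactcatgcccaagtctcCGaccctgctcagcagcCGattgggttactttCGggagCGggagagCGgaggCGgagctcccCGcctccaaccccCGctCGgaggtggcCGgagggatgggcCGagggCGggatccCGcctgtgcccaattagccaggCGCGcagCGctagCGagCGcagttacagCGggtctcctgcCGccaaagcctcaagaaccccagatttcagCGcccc

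The Aire window held 16 CG dinucleotides, 0.7 times the number given by its C and G content, the Dnmt3l window 6 (0.27 times) and the Icosl window 26 (0.76 times). The 3 windows printed thus differed in CG density, that of Dnmt3l being partly exon and only the first of 3 listed for the gene. A TATAAA sequence was found in the Aire window and a GC box (GGGCGG) in the other 2, on either strand.

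Aire was at 111.72 TPM in 5C-Oct4GFP+, 0 and 1.42 in mES-Oct4GFP+ and mES-Oct4GFP- cells, 2.08 in 5C-Oct4GFP- cells, 0 in the naive derivatives, 0 in the primed derivatives and 0.52 in R1 ESCs-primed. Its 763 reads in 5C-Oct4GFP+ stood against at most 9 in any other library, and where it had no reads a count of 0 still allows 3 reads, which is at most 0.78 TPM. The TPM ratio to 5C-Oct4GFP-, the next library, was 53.7 (28.2 to 118).

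Dnmt3l was at 525.34 TPM in 5C-Oct4GFP+, 5.31 and 1.31 in mES-Oct4GFP+ and mES-Oct4GFP- cells, 1.04 in 5C-Oct4GFP- cells, 20.21 in the naive derivatives, 0.47 in the primed derivatives and 16.03 in R1 ESCs-primed. The ratio to the naive derivatives was 26 (22.1 to 30.7). Unlike Aire, Dnmt3l was above 10 TPM in 2 of the other libraries, 1 naive and 1 primed, while the primed cells derived from 5C-Oct4GFP+ had 2 reads.

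Icosl was at 26.18 TPM in 5C-Oct4GFP+, 1.46 and 1.86 in mES-Oct4GFP+ and mES-Oct4GFP- cells, 5.41 in 5C-Oct4GFP- cells, 1.18 in the naive derivatives, 7.46 in the primed derivatives and 4.75 in R1 ESCs-primed. Its order over the other libraries differed from that of Dnmt3l, with the primed derivatives next and the naive derivatives lowest.

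Of 11 genes in the tables within 150 kb of the Dnmt3l start, 8 had a TPM of at least 10 in 5C-Oct4GFP+, and Aire, Dnmt3l and Icosl were the only 3 of these 8 that were highest there. Pfkl, a glycolytic phosphofructokinase on the other side of Aire, was at 167.67 TPM in 5C-Oct4GFP+ but at 221.26 TPM in mES-Oct4GFP- and 223.1 TPM in the primed derivatives. Aire and Dnmt3l share 67 exon bases on opposite strands, of 3825 and 2988 exon bases. The library kit used does not keep strand, so reads from those bases cannot be assigned to 1 of the genes, and 681 exon bases of Aire lie within the Dnmt3l span; the part of such reads in the Aire level was not tested.

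**Figure D2:**
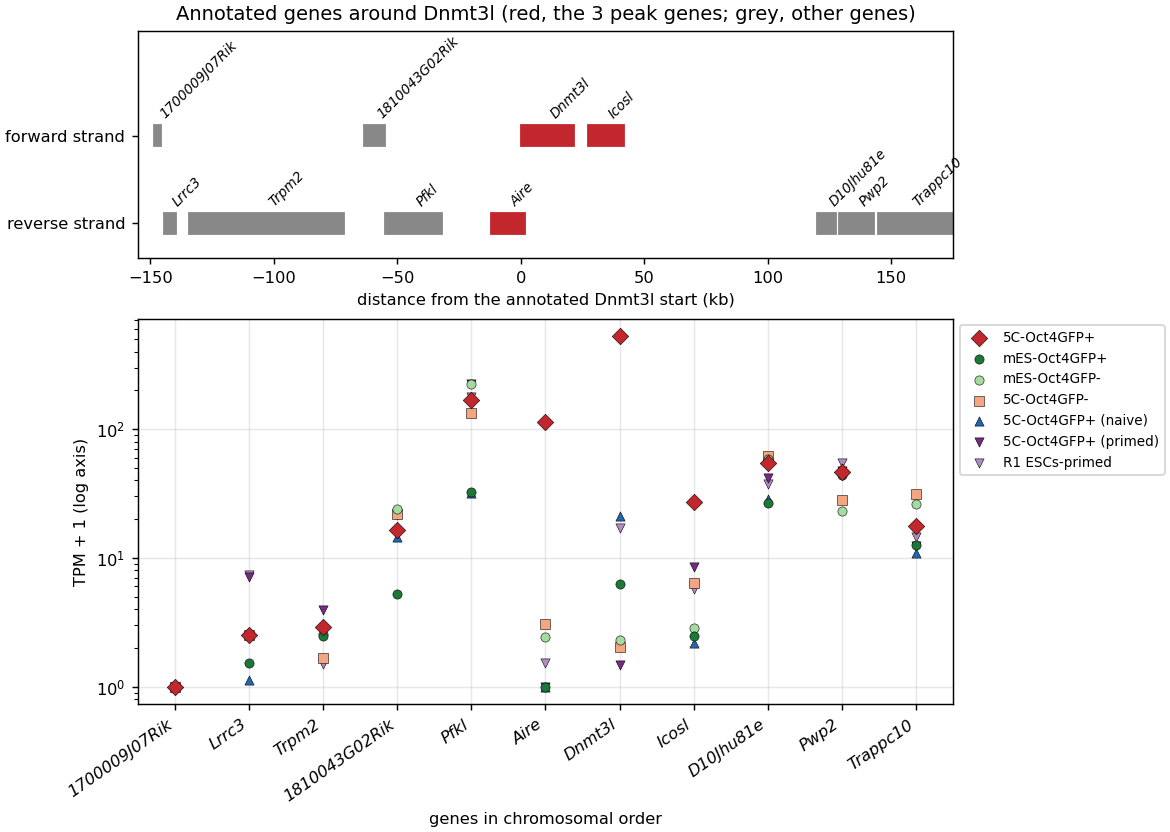
Upper panel, annotated genes around the Dnmt3l start by distance in kb and strand (red, the 3 members). Lower panel, TPM + 1 (log axis) of each gene in the 7 libraries, 1 point per library: the 5C-Oct4GFP+ point is apart from the others at Aire (111.72 TPM), Dnmt3l (525.34 TPM) and Icosl (26.18 TPM) and within or near the range of the other libraries at the remaining genes.

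Position was not part of the rule. Of the 149 members placed in the annotation, 24 lay within 100 kb of another member, in 11 groups, and 19 lay within 10 kb of another. The same count for the 150 highest scores of each other library was 26 and 28 in mES-Oct4GFP+ and mES-Oct4GFP- cells, 15 in 5C-Oct4GFP- cells, 43 in the naive derivatives, 15 in the primed derivatives and 8 in R1 ESCs-primed, so neighbouring genes were not particular to 5C-Oct4GFP+ at this distance. Within 10 kb the other libraries had 14, 11, 4, 16, 2 and 2 such genes in the same order.

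A second group on chromosome 1 joined Dusp27, Gpa33 and Mael, of which Dusp27 and Gpa33 start 2316 bases apart on opposite strands. Gpa33, an intestinal epithelial surface antigen, was at 248.46 TPM in 5C-Oct4GFP+, 43.16 and 24.46 in mES-Oct4GFP+ and mES-Oct4GFP- cells, 32.35 in 5C-Oct4GFP- cells, 58.28 in the naive derivatives, 0.83 in the primed derivatives and 1.69 in R1 ESCs-primed. Dusp27 had 39.2 TPM in 5C-Oct4GFP+ and between 0.44 and 19.35 TPM in the others. Both were next highest in the naive library and near 1 TPM in the 2 primed libraries.

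Utf1, a chromatin-associated factor of pluripotent cells, and Kndc1, a guanine nucleotide exchange factor gene, lie 2251 bases apart on the forward strand of chromosome 7. Utf1 (chr7:139943789-139945112) was at 1033.62 TPM in 5C-Oct4GFP+, 42.17 and 19.25 in mES-Oct4GFP+ and mES-Oct4GFP- cells, 99.91 in 5C-Oct4GFP- cells, 119.09 in the naive derivatives, 527.53 in the primed derivatives and 480.58 in R1 ESCs-primed. Kndc1 (chr7:139894696-139941537) was at 18.21 TPM in 5C-Oct4GFP+ and, in the same order, at 1.55, 0.77, 1.65, 1.38, 3.19 and 2.03 TPM in the others. Both were next highest in the primed derivatives, Utf1 with a score of 0.97 and Kndc1 with a score of 2.2. The promoter windows of this pair and of Gpa33 are printed as neighbours of unequal CG density, at chr7:139894446-139894745, chr7:139943606-139943905 and chr1:166129971-166130270, all on the forward strand, with CG in capitals.
Kndc1: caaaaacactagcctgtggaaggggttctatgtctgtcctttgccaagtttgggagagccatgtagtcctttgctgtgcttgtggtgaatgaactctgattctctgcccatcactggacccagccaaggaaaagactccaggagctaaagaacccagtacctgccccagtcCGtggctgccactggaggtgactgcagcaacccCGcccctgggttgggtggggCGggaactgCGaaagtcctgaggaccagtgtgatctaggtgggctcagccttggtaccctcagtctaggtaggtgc
Utf1: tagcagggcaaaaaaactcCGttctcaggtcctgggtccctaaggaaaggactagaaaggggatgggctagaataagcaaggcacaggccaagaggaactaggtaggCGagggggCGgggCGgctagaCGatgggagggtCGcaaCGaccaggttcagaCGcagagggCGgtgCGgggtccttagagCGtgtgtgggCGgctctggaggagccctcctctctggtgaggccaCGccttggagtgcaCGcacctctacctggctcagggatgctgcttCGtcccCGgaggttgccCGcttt
Gpa33: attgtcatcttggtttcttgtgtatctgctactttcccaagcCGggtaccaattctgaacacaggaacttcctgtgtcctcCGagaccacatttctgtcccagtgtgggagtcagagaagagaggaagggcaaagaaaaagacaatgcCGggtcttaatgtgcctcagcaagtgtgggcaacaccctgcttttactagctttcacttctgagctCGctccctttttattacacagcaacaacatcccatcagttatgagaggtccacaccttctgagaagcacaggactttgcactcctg

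The Kndc1 window held 4 CG dinucleotides (0.17 times the number given by its C and G content), that of Utf1 17 (0.62 times) and that of Gpa33 4 (0.23 times). The remaining neighbouring members included Kirrel2 and Nphs1, slit diaphragm genes that start 625 bases apart in opposite directions on chromosome 7. Nphs1 was at 45.32 TPM in 5C-Oct4GFP+, 24.17 in mES-Oct4GFP+ and at most 5.29 TPM elsewhere. Kirrel2 was at 13.01 TPM in 5C-Oct4GFP+ and 5.23 in mES-Oct4GFP+, and neither of the pair exceeded 0.04 TPM in an Oct4GFP- library.

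Over all members, 109 of 150 matched a RefSeq promoter window by symbol. A ratio of observed to expected CG above 0.6, a usual mark of CpG island promoters, was found in 52 of these 109 (47.7%), against 78.8% of the 7023 windows of detected genes and 36.5% of all 27025 windows. The 150 highest scores of the other libraries gave 29.5% to 49.1%, and 68.1% for R1 ESCs-primed, each below the share among all genes detected in the same library. Of members at 10 TPM or more in all 6 other libraries 24 of 35 had such a promoter, against 9 of 31 at this level in 1 to 5 others and 19 of 43 in none. GC boxes were found in 61.5% of the member windows, 68.1% of the windows of detected genes and 35.9% of all. The NF-kB motif, searched by its name on both strands, was found in 16.5%, 9.9% and 8.2%, and the cAMP response element TGACGTCA in 0, 3.6% and 1.9%. The remaining 8 motifs searched (AP-1 TGANTCA, HIF core ACGTG, the E-box CACGTG, the TEAD site CATTCC, the STAT site TTCNNNGAA, the box TATAAA, the NRF2 site TGACNNNGC and the SRF CArG box by name) were in between 0.9% and 19.3% of the member windows, between 1.3% and 27.4% of the windows of detected genes and between 1.6% and 19.6% of all windows. Among them the HIF core was in 19.3% of member windows against 27.4% of those of detected genes and 19.6% of all, and the E-box, which holds the HIF core, in 6.4% against 11.1% and 7.2%.

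The 25 members with the highest scores spanned several functions. Enox1, a cell surface oxidase, was at 58.3 TPM in 5C-Oct4GFP+ and between 1.26 and 7.3 TPM in the others. Tcf15, a basic helix-loop-helix factor linked to the exit from naive pluripotency, was at 85 TPM in 5C-Oct4GFP+, 2.65 and 4.25 in mES-Oct4GFP+ and mES-Oct4GFP- cells, 1.81 in 5C-Oct4GFP- cells, 3.5 in the naive derivatives, 5.26 in the primed derivatives and 16.06 in R1 ESCs-primed. Sept1, a septin, was at 548.45 TPM in 5C-Oct4GFP+ and next highest in the naive derivatives (142.22 TPM) and mES-Oct4GFP+ (121.61 TPM), and was at most 41.43 TPM elsewhere.

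Others of the 25 had low levels throughout. Ube2dnl1 (32.04 TPM), Scgb3a1 (16.2), Bnipl (19.97), Tstd1 (22.69), Mocos (10.47), Ankrd35 (26.31), Sptbn4 (28.32), Ppm1j (34.44) and Vwf (25.47 TPM) were between 10 and 35 TPM in 5C-Oct4GFP+ and at most 7.84 TPM in any other library. Scgb3a1 rested on 40 reads and Tstd1 on 62 in 5C-Oct4GFP+, and their ratios to the next library were 7.04 (2.78 to 22.9) and 5.08 (2.58 to 11.1). Vwf, the only member among 11 endothelial markers, was also the only one of the 3 detected there that was highest in 5C-Oct4GFP+. Pecam1 was at 28.58 TPM in 5C-Oct4GFP+ but at 96.87 in mES-Oct4GFP+, and the list summed to 88.3 TPM in 5C-Oct4GFP+ against a range of 53.1 to 111.8 TPM in the other libraries.

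Some of these genes share reads with other genes. All 693 exon bases of Pet117 (11.81 TPM) lie within Kat14 on the same strand, and 63.4% of the 50-base words of Gm3371 and 56% of those of its paralog Gm5930 occur in another gene. In all, 16 of 149 members had more than 20% of such words in another gene, Gstp2 (49.1%, shared with Gstp1) and Ftl1 (47.3%, shared with a pseudogene) among them, and 76 had none. How RSEM divided such reads was not tested, and the levels of these genes are uncertain.

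**Figure D3:**
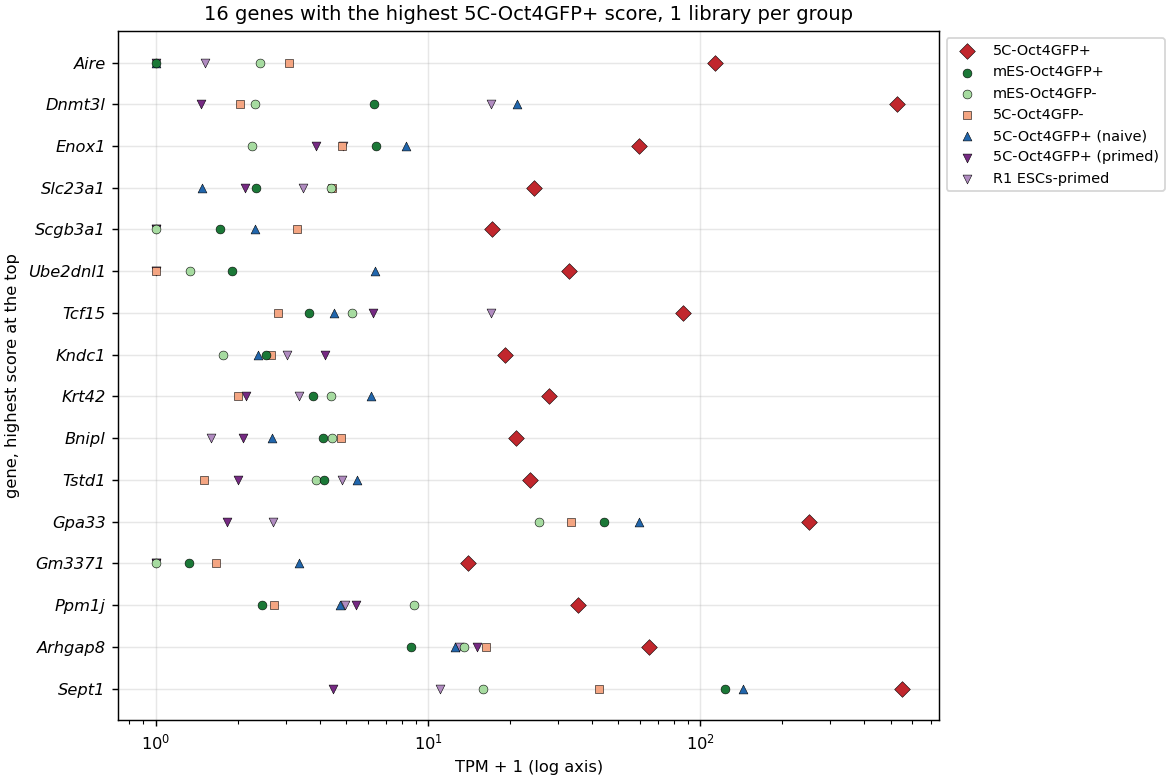
TPM + 1 (log axis) of the 16 genes with the highest score, in order of score, with 1 point per library. The red 5C-Oct4GFP+ point is rightmost in every row, as the rule requires, by the widest margins for Aire (111.72 TPM against 2.08) and Dnmt3l (525.34 against 20.21), and the library that comes next varies from gene to gene.

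Grouped by known role after their values were seen, 89 members fell into 8 groups and 61 into none. In the group of DNA methylation, germline and gamete genes, 9 of 12 were next highest in mES-Oct4GFP+, against 35 of all 150 members and 19.4% of all genes. The margin of mES-Oct4GFP+ over the naive derivatives was small for Mael (3.06 against 2.77 TPM) and Mov10 (74.85 against 71.24 TPM). It was larger for Rbm44 (4.16 against 1.82 TPM). Of the 8 genes of DNA methylation and its removal examined, chosen after their values were seen, Dnmt3l and Tet1 were highest in 5C-Oct4GFP+. Tet1, which oxidizes 5-methylcytosine, was at 131.58 TPM in 5C-Oct4GFP+, 51.77 and 4.43 in mES-Oct4GFP+ and mES-Oct4GFP- cells, 14.04 in 5C-Oct4GFP- cells, 43.11 in the naive derivatives, 23.86 in the primed derivatives and 30.17 in R1 ESCs-primed. The catalytic partners of Dnmt3l had another order: Dnmt3b was at 366.39 TPM in 5C-Oct4GFP+ but at 843.89 TPM in the primed derivatives and 822.53 TPM in R1 ESCs-primed, and Dnmt3a was at 97.06 TPM against 135.56 TPM in R1 ESCs-primed. Dnmt1 and Uhrf1, the maintenance pair, were at 149.75 and 315.44 TPM in 5C-Oct4GFP+ and higher in mES-Oct4GFP+ (160.54 TPM) and the naive derivatives (356.62 TPM), respectively.

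Several of the germline members were expressed at low levels. Mael, a factor of piRNA-dependent transposon silencing, was at 12.73 TPM in 5C-Oct4GFP+, 3.06 and 0.15 in mES-Oct4GFP+ and mES-Oct4GFP- cells, 0 in 5C-Oct4GFP- cells, 2.77 in the naive derivatives, 0 in the primed derivatives and 0.35 in R1 ESCs-primed. Rbm44 (18.11 TPM), Sycp3 (13.36 TPM, a synaptonemal complex protein) and Ly6k (13.65 TPM) were likewise highest after 5C-Oct4GFP+ in mES-Oct4GFP+ and at most 0.96 TPM in both primed libraries. Tdrd5, a tudor domain gene of the piRNA pathway, had another order, at 11.15 TPM in 5C-Oct4GFP+, 6.2 in R1 ESCs-primed, 4.39 in the primed derivatives and 2.76 in mES-Oct4GFP+. Sycp3 shares 52.2% of its exon bases with Chpt1 on the other strand (11.64 TPM in 5C-Oct4GFP+), and the part of Chpt1 reads in it was not tested. Mov10, an RNA helicase that restrains retrotransposons, was higher at 175.88 TPM, with 74.85 TPM in mES-Oct4GFP+ and 71.24 in the naive derivatives.

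The wider list of 37 oocyte, germline and early embryo genes was mixed. Of these, 9 had a TPM of at least 10 in 5C-Oct4GFP+, and their median score was 0.00 against -0.52 over all 8921 genes. Mael and Sycp3 were members, beside 1.68% of all detected genes. In 5C-Oct4GFP+ 5 of the 9 were highest, beside 1188 of the 8921. Dazl was at 9.1 TPM in 5C-Oct4GFP+ but at 191.46 in mES-Oct4GFP+ and 135.04 in the naive derivatives, Stra8 was at 0 against 306.21 TPM in mES-Oct4GFP+, and Rhox5 was at 71.26 TPM against 558.56 and 913.34 TPM in these 2 libraries.

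Regulators of pluripotency and of the early epiblast made up 16 members with a median score of 0.96, and their next-highest libraries were spread over all 6. Of the 18 detected genes of the formative and primed list, 6 were members, Dnmt3l, Etv5, Grhl2, Rbpj and Utf1 among them, beside 1.68% of all detected genes. In 5C-Oct4GFP+ 7 of the 18 were highest, beside 1188 of all 8921 detected genes. The median score of the list was -0.50 against -0.52 over all genes. The list was written with results of these samples known and the study itself followed genes of it in these cells, so it is not independent evidence. The 25 genes of the naive list all had a TPM of at least 10, with 5 highest in 5C-Oct4GFP+, 1 member, Dppa4, and a median score of -0.58.

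Dppa4, a small nuclear protein of early embryos, was at 259.66 TPM in 5C-Oct4GFP+, 102.42 and 0.17 in mES-Oct4GFP+ and mES-Oct4GFP- cells, 3.09 in 5C-Oct4GFP- cells, 68.18 in the naive derivatives, 0.54 in the primed derivatives and 13.35 in R1 ESCs-primed. Its partner Dppa2 was in the opposite order between 5C and mES medium, at 63.16 TPM in 5C-Oct4GFP+ against 132.8 TPM in mES-Oct4GFP+.

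Rbpj, the DNA-binding partner of Notch, was at 183.09 TPM in 5C-Oct4GFP+, 74.67 in mES-Oct4GFP+ and between 38.41 and 65.24 TPM in the other 5. None of the 6 other genes of the Notch nuclear pathway examined was highest in 5C-Oct4GFP+, and the target Hes1 was at 60.32 TPM there against 188.8 TPM in 5C-Oct4GFP-. Fgf4, a growth factor of the inner cell mass, was at 198.8 TPM in 5C-Oct4GFP+, 104.1 in mES-Oct4GFP+, 95.72 in the naive derivatives and at most 19.32 TPM elsewhere. Etv5, a transcription factor downstream of FGF, was at 382.97 TPM and within 127.72 to 227.63 TPM in the others. These were the 2 members among 17 genes of FGF and ERK feedback with a TPM of at least 10, beside 1.68% of all detected genes. The median score of the 17 was -1.09. Dusp6, a feedback phosphatase, was at 73.72 TPM in 5C-Oct4GFP+ against 119.25 in 5C-Oct4GFP- and 135.31 TPM in the primed derivatives.

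Mycn was at 159.09 TPM in 5C-Oct4GFP+ and between 68.22 and 75.59 TPM in the 3 libraries at passage 20. Mybl2, a cell cycle transcription factor, was at 736.37 TPM in 5C-Oct4GFP+, 396.35 in the naive derivatives, 360.32 in mES-Oct4GFP+ and at most 82.75 TPM in the other 4. Of the Wnt list, Fzd7, a Frizzled receptor, was at 85.01 TPM in 5C-Oct4GFP+ and near 40 TPM in both primed libraries (40.53 and 37.95) and mES-Oct4GFP- (39.85), but at 4.11 TPM in mES-Oct4GFP+ and 2.18 TPM in the naive derivatives, while the ligand Wnt6 was at 10.21 TPM and at most 4.81 TPM elsewhere. Fzd7 and Wnt6 were 2 of 12 genes of the Wnt list with a TPM of at least 10, beside 1.68% of all detected genes.

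Chromatin regulators made up 6 members. Jarid2 and Phf19, accessory subunits of polycomb repressive complex 2, were at 157.7 and 14.1 TPM in 5C-Oct4GFP+. Phf19 was at most 0.16 TPM in mES-Oct4GFP+ and the naive derivatives and between 2 and 4.86 TPM in the other 4, whereas Jarid2 was between 54.57 and 90.96 TPM in all 6. The core subunits Ezh2 (144.17 TPM), Eed (147.83 TPM) and Suz12 (172.71 TPM) were not highest in 5C-Oct4GFP+, and each was higher in mES-Oct4GFP+ (206.92, 160.05 and 238.97 TPM).

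Epithelial junction, polarity and membrane genes made up 11 members with a median score of 1.47. Grhl2, a transcription factor of epithelial cells, was at 43.7 TPM in 5C-Oct4GFP+, 5.08 and 9.13 in mES-Oct4GFP+ and mES-Oct4GFP- cells, 7.14 in 5C-Oct4GFP- cells, 5.03 in the naive derivatives, 11.94 in the primed derivatives and 8.42 in R1 ESCs-primed. Tjp3, a tight junction scaffold, was at 34.84 TPM in 5C-Oct4GFP+ and between 2.73 and 10.52 TPM in the others, Krt42, a type I keratin, at 26.7 TPM and at most 5.19 TPM elsewhere, and Arhgap8 at 63.64 TPM and at most 15.28 TPM. Of 27 detected genes in the list of keratins and epithelial junctions, only Grhl2 and Tjp3 were members, beside 1.68% of all detected genes. In 5C-Oct4GFP+ 5 of the 27 were highest, beside 1188 of all 8921. The median score of the list was -0.51, close to that of all genes. The summed keratinocyte markers exceeded those of mES-Oct4GFP+ and the naive derivatives, as given above, and their part in these levels was not tested.

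Among 10 solute carriers and pumps, Slc23a1, a vitamin C transporter, was at 23.53 TPM in 5C-Oct4GFP+, 1.33 and 3.4 in mES-Oct4GFP+ and mES-Oct4GFP- cells, 3.44 in 5C-Oct4GFP- cells, 0.48 in the naive derivatives, 1.12 in the primed derivatives and 2.48 in R1 ESCs-primed. Its ratio to 5C-Oct4GFP- was 6.91 (5.03 to 9.7). The other vitamin C transporter, Slc23a2, was at 18.13 TPM in 5C-Oct4GFP+ and between 12.9 and 27.18 TPM in the others. Slc20a1, a phosphate transporter, was at 528.47 TPM in 5C-Oct4GFP+ and at 217.19 and 220.37 TPM in the 2 primed libraries, and it overlaps 9830144P21Rik, another member on the other strand, over 452 exon bases.

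Metabolic enzymes and redox genes made up 15 members with a median score of 1.04, and iron and lipid carriers were among the most abundant. Ftl1, the ferritin light chain, was at 7929.11 TPM in 5C-Oct4GFP+ and between 3627.23 and 4529.01 TPM in all other libraries, while the heavy chain Fth1 was at 1482.75 TPM and not highest there (1536.74 TPM in the naive derivatives). Apoe, a lipid carrier, was at 2122.52 TPM in 5C-Oct4GFP+, 550.57 and 606.19 in mES-Oct4GFP+ and mES-Oct4GFP- cells, 190.94 in 5C-Oct4GFP- cells, 670.57 in the naive derivatives, 156.05 in the primed derivatives and 110.36 in R1 ESCs-primed. It was the only member among 29 genes of cholesterol and lipid handling with a TPM of at least 10. This count is too small to set apart from the 1.68% of all detected genes.

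Gstp2, a glutathione transferase, was at 602.35 TPM in 5C-Oct4GFP+, 352.97 in the naive derivatives and 201.51 in mES-Oct4GFP+, and near 2 TPM in both primed libraries (1.96 and 2.04), but it shares sequence with Gstp1 as given above. Gpx2, a glutathione peroxidase, was at 447.56 TPM in 5C-Oct4GFP+ and at most 17.44 TPM in the primed libraries. Chchd10, a mitochondrial protein, was at 947.35 TPM and next at 505 TPM in the naive derivatives, Aldh2, a mitochondrial aldehyde dehydrogenase, at 643.69 and next at 327.28 TPM in mES-Oct4GFP-, and Mkrn1, a ubiquitin ligase, at 864.46 and next at 418.72 TPM in mES-Oct4GFP+. None of 23 glycolysis genes, 23 hypoxia targets, 21 ATF4 and unfolded protein response genes or 21 p53 targets with a TPM of at least 10 was a member. In the same order, 4, 4, 7 and 4 of these genes were highest in 5C-Oct4GFP+, beside 1188 of all 8921 detected genes. Members were 1.68% of all detected genes, a share at which lists of this size can easily hold none. The lists do not hold every gene of a pathway, so no conclusion is drawn from this absence.

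Gm37697 (3080.97 TPM) and Gm28625 (2760.5 TPM), also among the most abundant, are gene models with no assigned name. Both were next highest in mES-Oct4GFP+ (1505.26 and 1457.97 TPM) and lowest in mES-Oct4GFP- (116.75 and 97.41 TPM), and 56.4% of the 50-base words of Gm28625 occur in 11 other genes. Pim3, a kinase gene of the LIF list, was at 227.37 TPM in 5C-Oct4GFP+ and 131.52 TPM for 5C-Oct4GFP-. It was the only member of 15 genes of that list with a TPM of at least 10, again too few to compare with 1.68% of all detected genes. Sema4a, a semaphorin, was at 14.17 TPM and at most 4.29 TPM elsewhere.

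In all, 15 members are known from immune or blood cells, Aire and Icosl among them, with a median of 28.4 TPM in 5C-Oct4GFP+. Of 11 macrophage markers, 1 had a TPM of at least 10 in 5C-Oct4GFP+ and 6 were at 0, and the list summed to 47.7 TPM there, within 13.1 to 64.7 TPM in the other libraries. None of 15 detected genes in the list of interferon response and antigen presentation was a member, beside 1.68% of all detected genes. The list does not hold every gene of this response, so no conclusion is drawn from this absence.

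The Platr transcripts, long non-coding RNAs named for their link to pluripotency, gave 4 members of 13 with a TPM of at least 10, beside 1.68% of all detected genes. This family was chosen after its values were seen, so no conclusion is drawn from the count. Platr10 was at 273.52 TPM in 5C-Oct4GFP+, 140.32 and 2.58 in mES-Oct4GFP+ and mES-Oct4GFP- cells, 15.84 in 5C-Oct4GFP- cells, 155.22 in the naive derivatives, 43.98 in the primed derivatives and 124.97 in R1 ESCs-primed. Platr7 (45.57 TPM) was above 10 TPM in mES-Oct4GFP+ (19.53), the naive derivatives (16.29) and 5C-Oct4GFP+ alone, Platr11 (42.31 TPM) was next highest in the 2 Oct4GFP- libraries (20.17 and 20.11 TPM), and Platr22 (11.01 TPM) was at most 3.03 TPM elsewhere. Other Platr transcripts had the reverse order: Platr13 was at 78.66 TPM in 5C-Oct4GFP+ against 673.94 TPM in mES-Oct4GFP+ and 844.79 TPM in the naive derivatives.

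**Figure D4:**
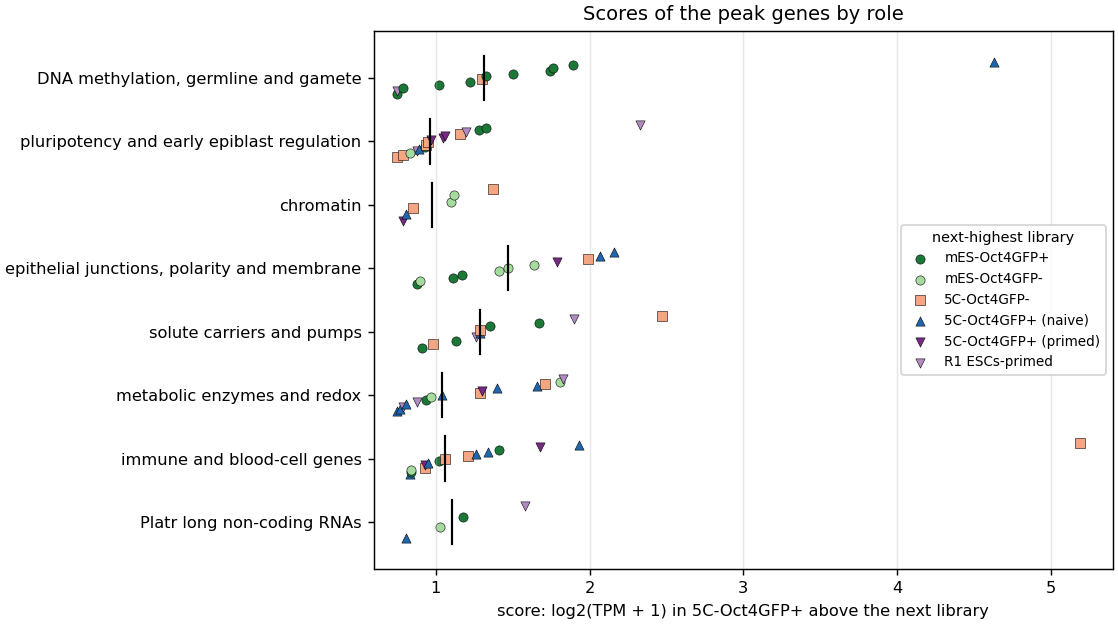
Scores of 89 members in 8 groups of known role, 1 point per gene, coloured and shaped by the library with the next-highest TPM, with a black bar at the median of the group. Aire (5.19) and Dnmt3l (4.63) stand apart on the right, and the medians lie between 0.96 and 1.47. The germline group is mostly next highest in mES-Oct4GFP+ (9 of 12, against 35 of all 150 members), in part by small margins.

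The library with the next-highest level was the naive derivatives for 35 members, mES-Oct4GFP+ for 35, 5C-Oct4GFP- for 32, mES-Oct4GFP- for 19, the primed derivatives for 16 and R1 ESCs-primed for 13. Over all 8921 genes the highest of these 6 libraries was the naive derivatives for 12.4%, mES-Oct4GFP+ for 19.4%, 5C-Oct4GFP- for 17.6%, mES-Oct4GFP- for 24.2%, the primed derivatives for 13.6% and R1 ESCs-primed for 12.7%. In sum, 70 members were next highest in mES-Oct4GFP+ or the naive derivatives, 51 in an Oct4GFP- library and 29 in a primed one. The level in the next library is the value that the score subtracts, so the rule shaped this split, which is a description only. A TPM of at least 10 was reached in no other library by 59 members, in all 6 by 45 and in 1 to 5 by the remaining ones.

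Because the same 5C-Oct4GFP+ library enters each of the following differences and the score, they are descriptions that the choice of members largely fixes. At least 2-fold higher in 5C-Oct4GFP+ were 131 members relative to mES-Oct4GFP+ (12.0% of all 8921 genes), 137 relative to mES-Oct4GFP- (14.8%), 136 relative to 5C-Oct4GFP- (8.64%), 130 relative to the naive derivatives (14.9%), 143 relative to the primed derivatives (15.0%) and 142 relative to R1 ESCs-primed (14.9%). The median difference was between 1.63 (mES-Oct4GFP+) and 2.58 (the primed derivatives) on the log2(TPM + 1) scale, against -0.04 to 0.11 over all genes. In 125 members the level was at least 2-fold lower in both cultures derived from 5C-Oct4GFP+ cells, the naive and the primed one, against 5.29% of all genes in both.

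The contrasts among the other libraries do not use the 5C-Oct4GFP+ values, but they are not free of the choice of members, since the highest of these 6 libraries entered each score and 59 members reached 10 TPM through 5C-Oct4GFP+ alone. They are given as descriptions. Between mES-Oct4GFP+ and mES-Oct4GFP-, 51 members (34.0%) were at least 2-fold higher in the Oct4GFP+ cells against 16.1% of all 8921 genes, and 22 (14.7%) were at least 2-fold lower against 18.4%. Between the naive derivatives and the primed derivatives, 54 members (36.0%) were at least 2-fold higher in the naive cells against 12.7% of all genes, and 13 (8.67%) lower against 14.0%. In these contrasts 28 members (18.7%) were higher in both against 7.06% of all genes, and 5 (3.33%) were lower in both against 8.87%, Fzd7 and Phf19 among them. The largest class, 68 members (45.3%), passed 2-fold in 1 of the contrasts alone against 26.4% of all genes, and 46 (30.7%) were within 2-fold in both against 56.2%. At levels below 10 TPM the added 1 narrows the differences.

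The naive derivatives and mES-Oct4GFP+ were within 2-fold of each other in 139 members, and the 2 primed libraries in 131. In the naive derivatives 7 members (4.67%) were at least 2-fold higher than in mES-Oct4GFP+ and 4 (2.67%) lower, against 1.02% and 2.11% of all genes. Between the primed derivatives and R1 ESCs-primed, 6 (4%) were higher and 13 (8.67%) lower, against 0.863% and 2.38%, and Dnmt3l (0.47 against 16.03 TPM), Dppa4 (0.54 against 13.35 TPM) and Tcf15 (5.26 against 16.06 TPM) were lower in the primed derivatives.

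**Figure D5:**
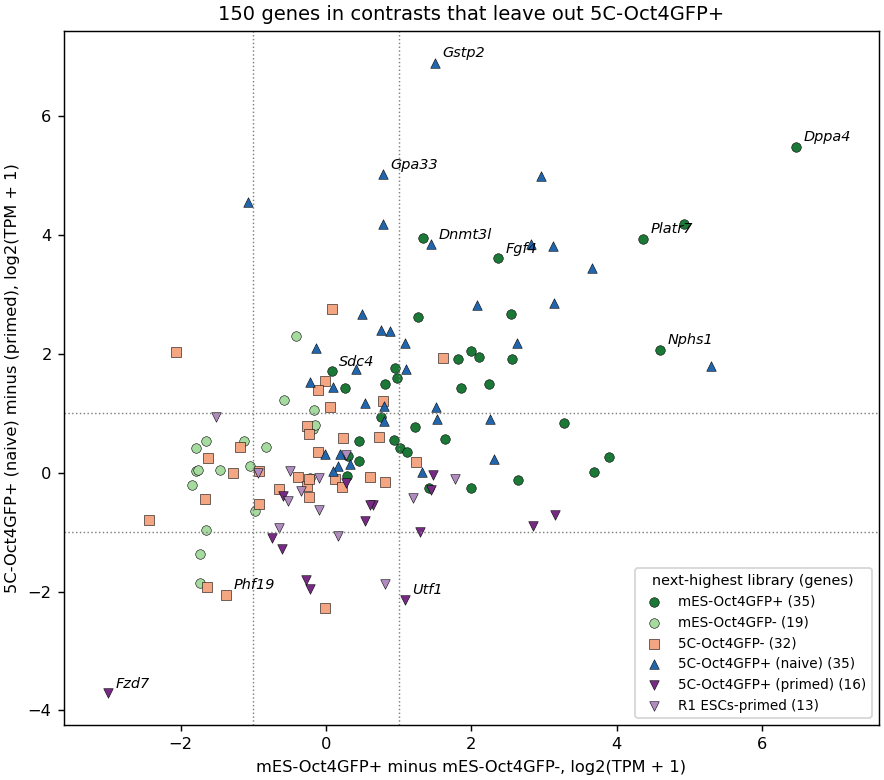
The 150 members by the difference between mES-Oct4GFP+ and mES-Oct4GFP- (x axis) and between 5C-Oct4GFP+ (naive) and 5C-Oct4GFP+ (primed) (y axis), both in log2(TPM + 1), 1 point per gene, coloured and shaped by the library with the next-highest level, with dotted lines at 2-fold. Of the members, 68 pass 2-fold on 1 axis alone, 46 lie within 2-fold on both axes, 28 lie in the upper right, where Dppa4, Platr7 and Nphs1 are found, 5 in the lower left and 3 in the other corners.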

How the data were processed

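Libraries were made with the TruSeq kit (v2, not strand-specific) and read on a MiSeq. The authors quantified the reads with RSEM, and the submitters' processing notes name Bowtie, RSEM and mm10. The deposited tables hold expected counts per Ensembl gene, TPM and FPKM as the authors' RSEM run gave them, with abundance-weighted transcript lengths. The annotation release and strand setting are not given in the sources used here.

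TPM was used for levels and scores (pseudocount 1, minimum TPM 10), and expected counts, rounded to whole reads, gave exact Clopper-Pearson intervals (95%) of ratios between 2 libraries. Intervals and limits of 3 reads for a count of 0 cover counting error only. Symbols, positions, exons and 50-base words came from GENCODE M21 (GRCm38, the build called mm10), which placed 149 of 150 members, and promoters from RefSeq (GRCm38.p6). Scripts in Python 3.11.15, with scipy 1.17.1 for intervals, pandas 2.3.3 and numpy 2.4.6 for tables and matplotlib 3.10.9 for plots, were tested on simulated data.

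Genes named were the 25 highest scores, the 10 highest levels, every member in a gene list, the 3 highest scores per next library and the 3 on each side of rank 150. A few genes that the rule names are not reported here. All others (genes of the families, neighbours, role groups and contrasts) were chosen after their values were seen. The members, lists and motifs were chosen with earlier results of these data known. No test was made, since each group had 1 library. Alternatives were FPKM, another pseudocount or minimum, median-ratio scaling, and each library left out of the maximum.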

Additional observations from a re-analysis of the deposited data

How the results depend on the processing

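Of the 150 members, 104 to 147 stayed among the 150 highest scores under 12 alternatives, fewest without 5C-Oct4GFP- in the maximum and most with a pseudocount of 0.1, with 109 with FPKM, 135 with median-ratio factors, 117 with a minimum TPM of 5 and 107 with a minimum of 20. The 92 genes with a score of at least 1 became 143 without 5C-Oct4GFP- in the maximum and 63 with a minimum TPM of 20. The median score (1.14) ranged from 0.93 to 1.40, and the 70 members next highest in mES-Oct4GFP+ or 5C-Oct4GFP+ (naive) ranged from 65 to 72 among 150 re-ranked genes. Another alternative, chosen after the data were seen, left out members that share much sequence with other genes. The limit was over 20% of the 50-base words, or over 20% of exon bases shared with a gene at 10 TPM or more. It left 133 members, 57 of them next highest in those 2 libraries, and 81 genes with a score of at least 1. Members with smaller overlaps, Aire and Dnmt3l among them, were kept. Of the members, 18 were in a list, against 16 with a pseudocount of 0.1 and 18 with median-ratio factors. Of the 25 highest scores, 3 of the 19 recalculated with FPKM and 2 of the 25 with median-ratio factors left their counting interval, and none changed sign. The other alternatives cannot turn the sign of a score, but 5 of the 25 left their interval without the naive derivatives in the maximum. Over all alternatives, 14 of 262 recalculated scores lay outside their interval. No paired analysis was possible because each group has 1 library.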

Other observations

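RSEM's abundance-weighted transcript length, which enters TPM, was compared for 86 members with at least 30 reads in 5C-Oct4GFP+ and another library, and in 58 of them the 5C-Oct4GFP+ value lay within the range of the others. Slc12a8, a cation-chloride cotransporter family gene, was assigned a longer mean transcript in 5C-Oct4GFP+ (2612 bases) than in 5 other libraries (806 to 2023 bases). Krt42 (1149 against 1542 bases in 1 library), Pdk4 (2698 against 3484 bases in 3 libraries) and Cybb (2491 against 3208 bases in 1 library) were assigned shorter ones. For Dnmt3l the length was 1651 bases in 5C-Oct4GFP+ and 1662 and 1676 bases in the 2 libraries with enough reads. These genes were chosen after their values were seen.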
